A study of Homo sapiens with 4 samples.

Results

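Accessible chromatin at 9 genes of antigen presentation was read from ATAC-seq counts in SEM, a leukemia cell line of B cell precursor type with a rearranged KMT2A gene. Members were the consensus peaks overlapping a gene body plus 5 kb on either side in the GRCh37 GENCODE 44 annotation, for HLA-B, HLA-C, HLA-E, HLA-DRA, HLA-DPA1, B2M, TAP1, CIITA and NLRC5. This rule found 28 of the 139872 consensus peaks, of which 3 lay at B2M, 10 at NLRC5 and 15 at CIITA. The other 6 genes, all in the major histocompatibility complex (MHC) on chromosome 6, overlapped 0 consensus peaks. The label of the set was therefore met only for the class I light chain and for the regulators of both classes, and the HLA and TAP1 genes themselves were not analysed here.

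In all libraries the cells expressed dCas9-KRAB, in which a Cas9 that cannot cut DNA carries the KRAB repressor domain. One group (2 libraries) also carried the guide RNA sgFLT3-DE-1, directed at a HOXA9-bound FLT3 enhancer, and the control group (2 libraries) the non-targeting guide sgNT. The titles of all libraries add BSD to dCas9-KRAB, and they name no treatment with a drug or stimulus for either group. Supplementary notes to the study describe puromycin selection of the cells before ATAC-seq. The labels call the libraries of a group replicates but do not say whether they came from separate cultures. Notes to the study speak of biological replicates within a condition. Each p-value rests on the spread between these libraries. Total counts were 3670758 and 4831164 in the sgFLT3-DE-1 libraries and 3321429 and 2683477 in the sgNT libraries. Both sgFLT3-DE-1 libraries were thus deeper than both sgNT libraries, and the part of depth in the group differences was not tested.

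Class I molecules present peptides made in the cell to CD8 T cells and consist of an HLA heavy chain and the light chain encoded by B2M. TAP1 is one part of the transporter that carries the peptides into the endoplasmic reticulum. Class II molecules present peptides from taken-up protein to CD4 T cells and are normally made by B cells and other professional antigen-presenting cells. NLRC5 and CIITA are related transactivators of the NLR family that do not bind DNA themselves. They are recruited by an enhanceosome of RFX, CREB and NF-Y factors on the SXY module of promoters, NLRC5 mainly to class I genes and CIITA mainly to class II genes. CIITA has alternative promoters, of which the most upstream is known from dendritic cells, the middle one from B cells and the most downstream one from cells exposed to interferon gamma.

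Promoter sequences of 3 genes are shown first, so that the letters searched can be seen in place, and the starts of other measured genes are not shown. Each run is the 250 bases before a transcription start, read from GRCh37 in the direction of transcription, with capitals at the motif matches. For CIITA the third group of annotated coding starts is shown, and HLA-DQB1 is added as the class II gene with a peak at its start. Positions are chr15:45003465-45003714 (plus strand) for B2M, chr16:10972576-10972825 (plus) for the third start of CIITA, and chr6:32634462-32634711 (minus) for HLA-DQB1.
B2M: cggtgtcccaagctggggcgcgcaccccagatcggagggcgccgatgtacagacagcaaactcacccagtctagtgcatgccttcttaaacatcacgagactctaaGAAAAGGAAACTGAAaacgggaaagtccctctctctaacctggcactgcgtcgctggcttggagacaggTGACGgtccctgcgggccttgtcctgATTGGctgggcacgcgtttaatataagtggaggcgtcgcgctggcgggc
CIITA (the third start): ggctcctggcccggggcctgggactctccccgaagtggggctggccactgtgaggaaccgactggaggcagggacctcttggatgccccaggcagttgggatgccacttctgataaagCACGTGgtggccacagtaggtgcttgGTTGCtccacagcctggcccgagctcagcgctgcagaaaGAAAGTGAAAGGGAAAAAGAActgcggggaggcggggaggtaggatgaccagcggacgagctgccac
HLA-DQB1: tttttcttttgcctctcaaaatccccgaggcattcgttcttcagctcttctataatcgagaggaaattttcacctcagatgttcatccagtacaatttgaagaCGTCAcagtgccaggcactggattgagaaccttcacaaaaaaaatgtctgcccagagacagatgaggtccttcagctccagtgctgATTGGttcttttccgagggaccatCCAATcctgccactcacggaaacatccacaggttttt

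The letters searched, on both strands, were GCAAC for the core of the X1 box bound by RFX, then TGACG as the core of the X2 box bound by CREB, then ATTGG as the Y box bound by NF-Y. GAAANNGAA was searched as an element of interferon regulatory factors (IRF), TTCNNNGAA as a GAS element bound by STAT factors, and CACGTG as an E box. Among the 250 bases before 19521 canonical coding starts, these were held by 27.96%, 25.52%, 34.32%, 6.137%, 5.609% and 7.868%, respectively. The B2M promoter held the X2 core from 75 to 71 bases before the start and the Y box from 49 to 45, a pair of matches that 9.56% of promoters held. It also held 2 IRF matches that overlap each other, from 144 to 136 and from 138 to 130 bases before the start. At CIITA, the third start had 3 overlapping IRF matches from 67 to 47 bases before it, an E box from 132 to 127 and an X1 core from 106 to 102. HLA-DQB1 held the TGACG letters from 147 to 143 bases before its start and the Y box letters at 2 places, from 61 to 57 and from 37 to 33. Its TGACG match lay farther from the Y box letters than the match at B2M. It is therefore not read as the X2 box of the gene. Each group of letters was searched on its own, and the spacing and order of an SXY module were not. None of the 3 sequences held the GAS letters, which says nothing about other forms of that element.

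The MHC was then examined as an interval. Between 28.5 and 33.5 Mb of chromosome 6, 9 of 10 bins of 500 kb contained 0 consensus peaks, and the remaining bin contained 4. The bins on either side contained 41 and 29 peaks, and the median bin of the chromosome contained 26. The stretch without a peak from 28459476 to 32590363 measured 4.13 Mb and was the longest on the chromosome, followed by one of 3.35 Mb. Only 1 of 182 protein-coding genes starting in the interval (0.549%) had a consensus peak in its window, against 83.1% of 19981 genes elsewhere. A gene without a consensus peak has no value in the table, so nothing can be read from it about open or closed chromatin. GRCh37 is distributed with alternate sequences for the MHC, for part of 17q21 and for a UGT2B locus on chromosome 4. The last 2 intervals, looked at after the MHC values were seen, were also sparse. Chromosome 17 from 43.5 to 45 Mb held 18 peaks, against 104 and 89 in flanks of the same length, and chromosome 4 from 69.25 to 69.75 Mb held 3, against 23 and 19. Whether the mapping reference held those alternate sequences was not given in any source read here, and their part in the missing MHC peaks was not tested.

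**Figure D1:**
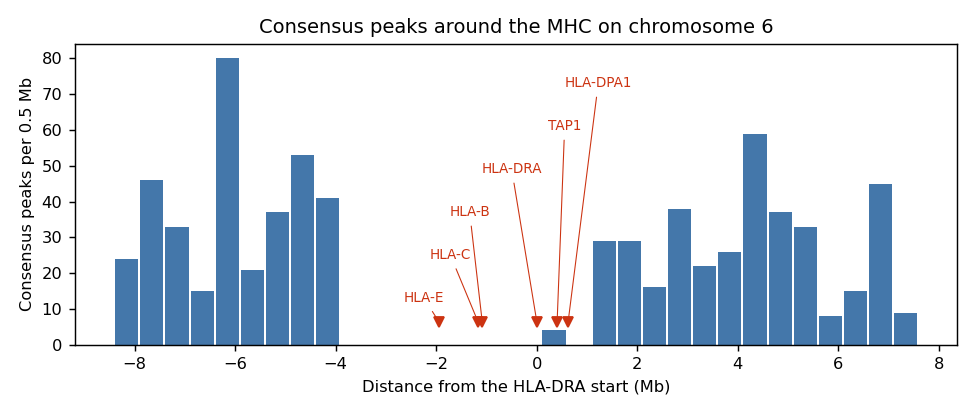
Number of consensus peaks per 0.5 Mb (vertical axis) by distance from the HLA-DRA start on chromosome 6 in Mb (horizontal axis). Triangles mark the 6 MHC members, which lie in an interval with 4 peaks between bins of 41 and 29.

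At B2M the groups overlapped at every consensus peak, and the group means at the start peak were close. The B2M gene (ENSG00000166710.23, chr15:45003556-45011049) had 1 peak at its start, chr15:45003461-45003816, covering the first exon and all 250 bases printed above. Normalised CPM, the count after TMM scaling of the libraries to a common total, was 23.2 and 29.0 with sgFLT3-DE-1 against 27.1 and 26.02 with sgNT. The sgNT values lay between the sgFLT3-DE-1 values, and the log2 fold change of sgFLT3-DE-1 over sgNT was -0.02 (SE 0.262, edgeR adjusted p = 1.00), with the sign reversed in 5 of 14 alternative fits. Per kb of peak, the sgNT mean of 74.6 CPM was higher than in 81.7% of 21028 promoter peaks, and the sgFLT3-DE-1 mean of 73.2 CPM higher than in 83.3%. This peak also lies within 1 kb of a start of PATL2, so its counts cannot be assigned to B2M alone. Weaker peaks lay 1150 bp before the nearest coding start (7, 15, 9 and 8 counts in sgFLT3-DE-1 replicates 1 and 2 and sgNT replicates 1 and 2) and in intron 1 (12, 23, 12 and 21 counts in the same order). Their log2 fold changes were -0.15 (SE 0.602) and -0.45 (SE 0.458), and the groups overlapped at both. The peak 1150 bp before the coding start also lies within 1 kb of a PATL2 start.

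NLRC5 (ENSG00000140853.17, chr16:57023397-57117443) had a start peak at chr16:57023206-57023574 over exon 1. Normalised CPM there was 13.6 and 23.9 with sgFLT3-DE-1 against 20.1 and 24.4 with sgNT. The group ranges overlapped, the log2 fold change was -0.22 (SE 0.293, edgeR adjusted p = 1.00), and sgFLT3-DE-1 replicate 1 was the low library. With a correction for GC content, which is 70.2% in this peak, the log2 fold change was -0.099. A second peak within 1 kb of the start, chr16:57023701-57023784 in intron 1, had 4, 14, 4 and 5 counts, in the library order used above, and did not pass the count filter. Per kb, the start peak averaged 60.3 CPM with sgNT, higher than in 73.0% of promoter peaks.

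The NLRC5 peak of smallest p lay upstream of the gene, at chr16:57019592-57019733, 3736 bp before the canonical transcript. Counts were 18 and 21 in the sgFLT3-DE-1 libraries and 9 and 7 in the sgNT libraries, or 5.56 and 4.64 against 3.01 and 2.80 normalised CPM. Both sgFLT3-DE-1 libraries were above both sgNT libraries, with a log2 fold change of 0.79 (SE 0.502, edgeR adjusted p = 1.00). A peak in intron 19, chr16:57076137-57076263, was also higher in both sgFLT3-DE-1 libraries (3.71 and 5.31 against 2.01 and 3.60 normalised CPM), with a log2 fold change of 0.73 (SE 0.533). Of the 8 NLRC5 peaks that passed the count filter, 4 had higher and 4 lower estimates with sgFLT3-DE-1, from -0.26 to 0.79.

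CIITA (ENSG00000179583.21, chr16:10960079-11036878) has 4 groups of annotated coding starts, beginning at 10960079, 10971055, 10972826 and 11016024. These groups were not matched to the promoters described above. No consensus peak lay within 1 kb of the first group, nor of the fourth. The second group lay in the peak chr16:10970719-10971134. Near the third were chr16:10972308-10972567 and chr16:10972655-10972800, ending 259 and 26 bp before the start.

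At the second CIITA start, normalised CPM was 14.2 and 17.03 with sgFLT3-DE-1 against 18.05 and 20.02 with sgNT. Both sgFLT3-DE-1 libraries were below both sgNT libraries, and the log2 fold change was -0.27 (SE 0.285, edgeR adjusted p = 1.00). The peak 259 bp before the third start gave 7.10 and 10.8 against 9.36 and 12.4, with overlapping groups and a log2 fold change of -0.25 (SE 0.350). The peak 26 bp before that start, which holds all the capitals printed for it, gave 3.40 and 6.19 against 5.35 and 4.004, with a log2 fold change of 0.06 (SE 0.464). Per kb, the sgNT means of these 3 peaks were 45.8, 41.9 and 32.0 CPM, near the 39.0 CPM of the median promoter peak. The second and the third starts thus both had consensus peaks.

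The CIITA peak of smallest p was chr16:10962440-10962801, between the first and second groups of starts and 2323 bp from the nearest of them. Normalised CPM was 11.4 and 13.3 with sgFLT3-DE-1 (mean 12.3 ± 1.30, SD, n = 2) against 21.7 and 18.4 with sgNT (mean 20.1 ± 2.34, SD, n = 2). Both sgFLT3-DE-1 libraries were lower, by -0.70 on the log2 scale (SE 0.292, edgeR adjusted p = 1.00). It was the only member peak with an unadjusted p under 0.05, 1 of 23 tested, where 1.90% of all 82558 tested peaks had one. Over the alternative fits, the log2 fold change stayed between -0.83 and -0.58, and no adjusted p fell below 0.218. In the alternative fits with all 4 libraries, the unadjusted p ran from 0.0015 (edgeR with replicate number as a further term) to 0.087 (DESeq2).

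**Figure D2:**
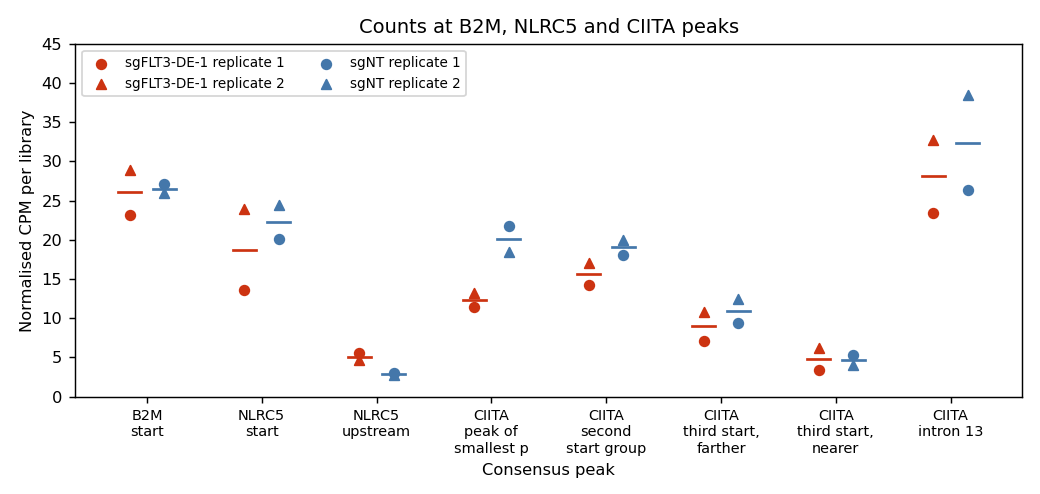
TMM-normalised CPM per library (vertical axis) at 8 peaks of B2M, NLRC5 and CIITA (horizontal axis). Replicate 1 is a circle, replicate 2 a triangle, and each line the mean of 2 libraries. The sgFLT3-DE-1 libraries lie below the sgNT libraries at the CIITA peak of smallest p (means 12.3 and 20.1) and overlap them at the B2M start (26.1 and 26.5).

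The largest CIITA count lay inside the gene, in intron 13, at chr16:11006364-11007021. Normalised CPM was 23.5 and 32.7 with sgFLT3-DE-1 against 26.4 and 38.4 with sgNT, with a log2 fold change of -0.19 (SE 0.271) and overlapping groups. An intron 1 peak, chr16:10985456-10985897, gave 19.2 and 23.66 against 23.73 and 24.8, so that the groups nearly touched, with a log2 fold change of -0.17 (SE 0.268). One CIITA peak was higher in both sgFLT3-DE-1 libraries, chr16:11012633-11012894 in intron 16 (4.63 and 6.63 against 4.34 and 2.40), with a log2 fold change of 0.73 (SE 0.481).

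The CIITA window also took in the starts of the neighbours DEXI and CLEC16A. The peak at the DEXI start, chr16:11036149-11036483, gave 20.1 and 17.2 normalised CPM with sgFLT3-DE-1 against 24.7 and 24.4 with sgNT, a log2 fold change of -0.40 (SE 0.270). At the CLEC16A start, chr16:11038196-11038500, the values were 17.9 and 15.7 against 19.4 and 21.2, with a log2 fold change of -0.28 (SE 0.280). Both were lower in both sgFLT3-DE-1 libraries, and they account for 2 of the 5 CIITA peaks of that kind. With a correction for GC content, which is 76.4% and 69.8% in these peaks, the log2 fold changes were -0.23 and -0.14.

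No member peak passed FDR 0.05 by edgeR, where 0.00242% of all tested peaks did, both of them higher with sgFLT3-DE-1. DESeq2 called 1 and limma-voom 3 of all 82558 tested peaks, and each called 0 member peaks. Of the 23 tested member peaks, 15 had lower and 8 had higher estimates, and the median log2 fold change was -0.17. Across all tested peaks 48.1% had lower estimates and the median was 0.01. Both sgFLT3-DE-1 libraries were below both sgNT libraries at 5 member peaks (21.7%), all in the CIITA window, against 13.8% of all tested peaks, and above them at 3 (13.04%), against 13.7%. With counts of 5 and 3 these shares do not set the members apart from the background. The 2 sgFLT3-DE-1 libraries also differed from each other. Replicate 1 was below replicate 2 at 20 of the 23 member peaks after scaling, where 50.9% of all tested peaks were, and within sgNT at 15 of 23, where 49.5% were. The part of this spread in the group differences was not tested. Member peaks had a median length of 233 bp and a median GC content of 55.8%, and all consensus peaks 179 bp and 47.98%. The nearest of 229 HOXA9-bound regions from the study's own list lay 1176 kb from a member peak.

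**Figure D3:**
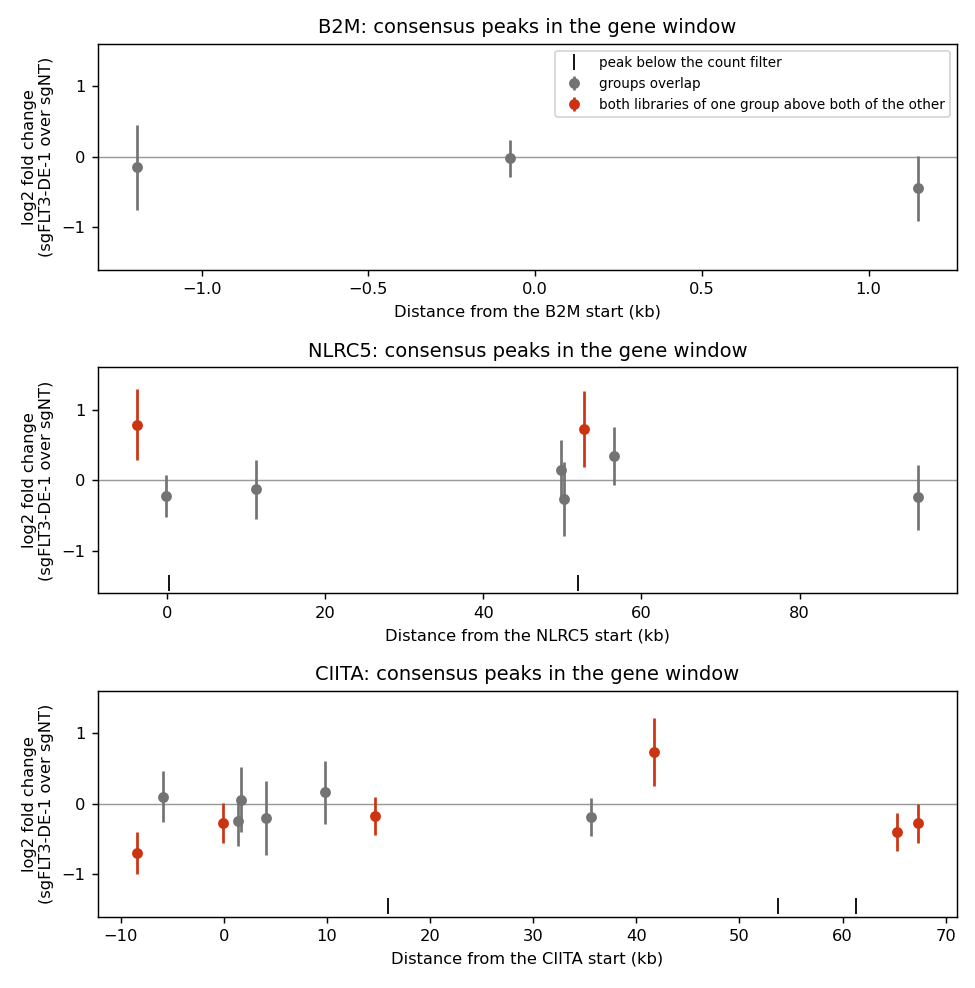
Log2 fold change of sgFLT3-DE-1 over sgNT with its standard error (vertical axis) for each tested consensus peak, by distance in kb from the B2M, NLRC5 or second CIITA start (horizontal axis). Red points are peaks whose groups do not overlap (2 of 8 at NLRC5, 6 of 12 at CIITA; of all tested peaks 13.8% were lower and 13.7% higher in both sgFLT3-DE-1 libraries), and black ticks are peaks below the count filter.

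Summed over each gene window, the groups overlapped at B2M and NLRC5, and CIITA was lower in both sgFLT3-DE-1 libraries without passing the test. Normalised CPM of the window sums, scaled within the table of gene windows, was 33.49 and 39.04 with sgFLT3-DE-1 against 37.0 and 38.1 with sgNT for B2M. For NLRC5 it was 52.0 and 76.0 against 57.0 and 68.1, so that the sgNT libraries lay inside the sgFLT3-DE-1 range. The CIITA sums were 166 and 180 against 190 and 195. The log2 fold changes were -0.04 (SE 0.217) for B2M, 0.04 (SE 0.234) for NLRC5 and -0.16 (SE 0.227) for CIITA, each with an edgeR adjusted p of 1.00. Across 15702 tested gene windows, 0% passed FDR 0.05, 0.949% had an unadjusted p under 0.05, 13.4% were lower in both sgFLT3-DE-1 libraries and 10.0% higher in both. The B2M and NLRC5 estimates changed sign in some alternative fits. In particular, NLRC5 was at -0.26 without sgFLT3-DE-1 replicate 2 and at 0.28 without sgFLT3-DE-1 replicate 1. CIITA stayed between -0.21 and -0.11 in all 16.

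Per kb of consensus peak, the order of the gene windows was the same in every library. In the sgNT libraries B2M stood at 60.8 and 62.6 CPM per kb, CIITA at 47.6 and 49.0 and NLRC5 at 28.01 and 33.49. In the sgFLT3-DE-1 libraries the levels were 54.99 and 64.1 for B2M, 41.6 and 45.04 for CIITA and 25.6 and 37.4 for NLRC5. The ranges of the 3 windows did not overlap within a guide, with the start peaks of neighbouring genes counted. The CIITA window includes the DEXI and CLEC16A start peaks, its densest with sgNT (means of 73.4 and 66.6 CPM per kb). The B2M window includes peaks near a PATL2 start. Whether the ranges stay apart without such peaks was not tested, so the separation is not read as one of the genes alone.

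The comparison of class I with class II genes and CIITA could not be made on the HLA genes, so the class I side was represented by NLRC5 and B2M in a comparison chosen after the values were seen. The log2 ratio of NLRC5 to CIITA window counts within a library was -1.67 and -1.24 with sgFLT3-DE-1 against -1.74 and -1.52 with sgNT. The groups overlapped, and the difference of 0.17 gave an exact two-sided permutation p of 0.667. For B2M to CIITA the ratios were -2.31 and -2.20 against -2.36 and -2.36, a difference of 0.10 with an exact permutation p of 0.333, the smallest that 2 libraries against 2 can give. Adjusted over these 2 comparisons, both were 0.667. Without the DEXI and CLEC16A start peaks the differences were 0.14 and 0.07, and without sgFLT3-DE-1 replicate 2 the NLRC5 difference was -0.046. The B2M sums include peaks within 1 kb of a PATL2 start, which were not set aside in the same way.

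HLA-DQB1, a class II beta chain, was the 1 MHC gene with consensus peaks in its window, and is described here although it was outside the naming rule and picked after its values were seen. The peak at its start, chr6:32634450-32634640, had 17 and 24 counts in the sgFLT3-DE-1 libraries and 10 and 15 in the sgNT libraries. Normalised CPM was 5.25 and 5.31 against 3.34 and 6.01, with overlapping groups and a log2 fold change of 0.20 (SE 0.457). A second peak inside the gene, chr6:32632652-32632754, had 5, 8, 4 and 3 counts and did not pass the count filter. Summed over the HLA-DQB1 window, normalised CPM was 7.84 and 7.39 with sgFLT3-DE-1 against 5.08 and 7.30 with sgNT. The groups did not overlap there, and the log2 fold change was 0.30 (SE 0.406). The gene is highly polymorphic and has close paralogs, so its counts are uncertain. CD74, the invariant chain that escorts class II molecules, lies outside the MHC and was read at its start peak, chr5:149792282-149792626. It gave 25.6 and 31.2 normalised CPM with sgFLT3-DE-1 against 33.8 and 34.0 with sgNT, lower in both by a log2 fold change of -0.25 (SE 0.256, edgeR adjusted p = 1.00). Other tested peaks in the CD74 window ranged from -0.44 to 0.20. Summed over the CD74 window, the groups overlapped (86.2 and 98.6 against 97.97 and 103.0 normalised CPM), with a log2 fold change of -0.12 (SE 0.205). Like HLA-DQB1, CD74 was named after its values were seen.

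The rest of the pathway was read from a list of 48 genes. Of these, 15 had no consensus peak in their window, and all 15 lie in the MHC interval, namely 3 class I heavy chains, 2 peptide loading genes, 2 immunoproteasome genes, 4 class II chains and 4 class II peptide loading genes. Gene windows of 32 genes were tested, of which 18 had lower and 14 higher estimates, and the median log2 fold change was -0.04 beside 0.01 over all gene windows. By edgeR 0 passed FDR 0.05, and 0 had an unadjusted p under 0.05. The share of all gene windows with an unadjusted p under 0.05 was 0.949%. Both sgFLT3-DE-1 libraries were below both sgNT libraries for 5 of the 32 and above them for 3, where 13.4% and 10.0% of all gene windows were, so these counts are near the background.

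By role, class I peptide loading genes had 5 of 6 lower estimates, the enhanceosome factors 4 of 7, the immunoproteasome genes 2 of 3, class II peptide loading 2 of 4, and the interferon and B cell inducers 5 of 11. The class I peptide loading estimates ran from -0.23 for TAPBPL (SE 0.282) to 0.17 for ERAP1 (SE 0.204). The share of lower estimates over all gene windows is not given here, so these counts are not read as a pattern by role. The lower windows of smallest p were IRF4, a B cell transcription factor of the IRF family, at -0.36 (SE 0.217), NFYA, the NF-Y subunit that contacts the Y box, at -0.29 (SE 0.211), and IFNGR2, a chain of the interferon gamma receptor, at -0.54 (SE 0.431). Normalised CPM of IRF4 was 35.3 and 44.8 with sgFLT3-DE-1 against 48.3 and 55.1 with sgNT, without overlap. NFYA gave 82.6 and 96.3 against 103 and 117, also without overlap, and IFNGR2 gave 5.34 and 6.47 against 6.17 and 11.4, with overlap.

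The higher windows of smallest p were SPI1, which encodes the ETS factor PU.1, at 0.21 (SE 0.230), ERAP1, an aminopeptidase that trims class I peptides, at 0.17 (SE 0.204), and RFXANK, a subunit of the RFX complex, at 0.18 (SE 0.218). SPI1 gave 40.3 and 52.2 normalised CPM against 35.6 and 45.01, with overlap. ERAP1 gave 105 and 89.4 against 86.4 and 86.0, and RFXANK 35.3 and 39.0 against 32.7 and 33.3, both without overlap. The edgeR adjusted p of each of these 6 windows was 1.00.

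**Figure D4:**
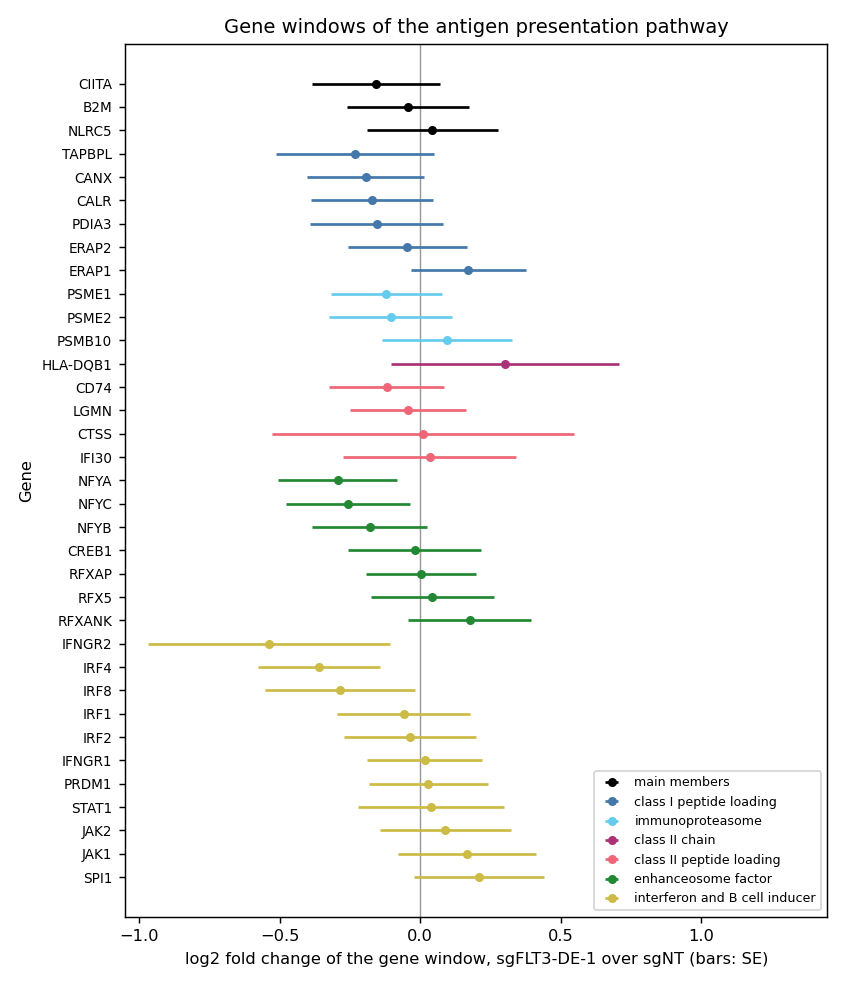
Log2 fold change of each tested gene window, sgFLT3-DE-1 over sgNT, with its standard error (horizontal axis), for B2M, NLRC5, CIITA and 32 pathway genes coloured by role (vertical axis). Estimates run from -0.54 for IFNGR2 to 0.30 for HLA-DQB1, and none passed FDR 0.05.

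The libraries were first checked at the peak holding the sgFLT3-DE-1 target, chr13:28842815-28843351. It gave 66.1 and 74.7 normalised CPM with sgFLT3-DE-1 against 126 and 140 with sgNT. The edgeR log2 fold change was -0.92 (SE 0.264, edgeR unadjusted p = 0.00164, adjusted p = 1.00). The paper reports its most significant loss of accessibility across the genome at this target locus. The edgeR test used here did not call it, so a member peak that was not called is not thereby shown to be unchanged. Peaks within 1 kb of a start were present for 7 of 9 B cell precursor markers found in the annotation, with none at CD79A or BLNK, and summed to 130 and 184 normalised CPM with sgFLT3-DE-1 against 153 and 186 with sgNT. T cell markers (3 of 5 with a peak, none at CD3D or CD2) summed to between 23.8 and 34.5, and myeloid markers (4 of 5, none at CD14) to between 37.1 and 52.9, of which CEBPA made up 31.5 to 46.04. A start without a consensus peak has no value. Among erythroid markers, KLF1 and ALAS2 had no peak, and HBB gave 573 and 239 with sgFLT3-DE-1 against 60.8 and 45.2 with sgNT. The part of the HBB counts in the results at the antigen presentation genes was not tested.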

How the data were processed

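ATAC-seq libraries of SEM cells, 2 per guide, were grouped by their titles. The authors deposited raw counts per consensus peak, called on the libraries compared here, with regions on hg19. The mapping is described as Bowtie2 2.2.9 after cutadapt 1.18 in the extract protocol, and BWA with Trim Galore 0.4.4, bedtools 2.24.0, SAMtools 1.2 and MACS2 2.1.1.20160309 in the submitters' processing notes. Supplementary notes to the study describe uniquely mapped pairs and short fragments for peak calling. The fragments that were counted and any correction for the transposase offset are not given in the sources used here. Unique mapping lowers counts where sequence is repeated.

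Starts were converted to 1-based positions. Counts were tested in edgeR 4.0.16 (R 4.3.3) with filterByExpr (minimum count 10, minimum total 15), TMM factors and the quasi-likelihood test with group as the only term, over 82558 peaks and over 15702 gene windows (peaks summed per protein-coding gene body plus 5 kb), each with Benjamini-Hochberg adjustment at FDR 0.05. SE was taken as the size of the log2 fold change divided by the root of the F statistic. Alternatives used DESeq2 1.42.0, limma-voom 3.58.1, other scalings, filters and windows, GC offsets and left-out libraries. Ratios between genes were compared by exact permutation over libraries. The fit was tested on simulated data.

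All 9 members were to be named, with their start peaks, their peak of highest count and of smallest p, and the 3 pathway windows of smallest p in each direction. Peaks whose groups did not overlap, neighbouring gene starts, HLA-DQB1 and CD74 were added after values were seen. Some promoter sequences and 1 marker are not reported here. Members and lists were chosen with earlier results of these data known. Replicate counts within a group differed by more than sampling noise (chi-square over its degrees of freedom 2.76 for sgFLT3-DE-1 and 1.66 for sgNT). No interval covers more than counting error and the spread of 2 libraries.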

Additional observations from a re-analysis of the deposited data

How the results depend on the processing

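No member peak and no member gene window passed FDR 0.05 under any of the scalings, filters, tests, windows, covariates or left-out libraries that were run, and the smallest adjusted p was 0.218 for a member peak and 0.586 for a member window. Of the 23 tested member peaks, 10 kept their direction throughout and 13 changed sign at least once, 12 of them only when a library was left out. The B2M window was at 0.012 with loess offsets over mean count and at 0.051 without sgFLT3-DE-1 replicate 1, and ranged from -0.17 to 0.051. The NLRC5 window was at -0.032 with gene body plus 10 kb, at -0.26 without sgFLT3-DE-1 replicate 2 and at -0.067 without sgNT replicate 1, and ranged from -0.26 to 0.28, and the cause was not tested. The difference of NLRC5 minus CIITA ranged from -0.046 (without sgFLT3-DE-1 replicate 2) to 0.39 over the left-out libraries, and that of B2M minus CIITA from 0.049 to 0.16. From only the peaks within 1 kb of a start these differences were 0.0025 and 0.22, and with gene body plus 10 kb 0.089 and 0.053. Called peaks over the whole table were 2 and ranged from 0 to 9 in the other fits, apart from 74 with the replicate block and 20 with the block and the GC correction. For gene windows these numbers were 0, 0 to 2, 93 and 16. Replicate numbers are shared by both groups, the labels give them no meaning, and replicate deviations correlated at 0.397 between the groups. With the replicate block the windows stood at -0.05 for B2M, 0.03 for NLRC5 and -0.16 for CIITA (SE 0.109, adjusted p = 0.586). The planned comparisons of the class I genes and the class II genes with each other and with CIITA could not be run, because their windows hold 0 consensus peaks, and fits without 1 library assume that the lone library of a group varies like the other group. Standard errors of member peaks from 0.262 to 0.602 on the log2 scale limit what could be detected. The peak at the guide's own target, with a log2 fold change of -0.92, did not pass FDR 0.05 in the main fit either.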
